A study of Rattus norvegicus with 21 samples.

Results

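Aminoacyl-tRNA synthetases are the enzymes that load each amino acid onto its own tRNA before the ribosome can use it. Of the 36 synthetase genes listed by symbol, 34 had a row in a table of 17311 genes counted in poly(A) RNA of primary rat astrocytes, 20 for cytosolic and 14 for mitochondrial enzymes. Iars2 and Mars2 had no row under these symbols and were not analysed here. All 34 were among the 12096 genes that passed the filter on low counts. The members were taken by symbol, and mitochondrial enzymes are those whose symbol ends in 2.

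The cells were primary astrocytes of neonatal Sprague-Dawley rats, passaged in culture and all transfected with siRNA by Lipofectamine. The groups were TDP-43 siRNA, TDP-43 siRNA with added ATP, and scrambled siRNA, each with 3 libraries and 9 in all. TDP-43, the product of Tardbp, is an RNA-binding protein that regulates splicing and is depleted from the nucleus in amyotrophic lateral sclerosis. The sources used here give neither how much ATP was added nor for how long, and cells given ATP without knockdown were not analysed here. The labels do not say whether libraries of a group came from separate animals or cultures, so the spread that the p-values rest on is that between libraries, which may be technical. In bulk RNA, fewer cells of a type and less RNA per cell cannot be told apart.

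Each cell keeps a cytosolic and a mitochondrial set of synthetases, both encoded in the nucleus, and the enzymes fall into class I and class II by the fold of the catalytic domain. Gars and Kars each encode both the cytosolic and the mitochondrial enzyme, and Eprs encodes a fused enzyme for glutamic acid and proline. Mitochondria have no glutaminyl enzyme of their own: Ears2 loads glutamic acid onto the glutamine tRNA, and an amidotransferase then converts it. Several cytosolic synthetases sit in a multisynthetase complex held together by scaffold proteins. Shortage of amino acids activates the kinase encoded by Eif2ak4, which senses uncharged tRNA, and the transcription factor ATF4, which is known to raise many cytosolic synthetase genes through the C/EBP-ATF response element.

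That element was looked for in RefSeq promoter windows of build GRCr8, from 250 bases before to 50 after each gene's start. The letters searched were TGATGNAAN, on both strands. A window was given for 17 of the 20 cytosolic genes, all but Dars, Gars and Rars, and 7 of the 17 (41.2%) held a match, against 0 of 14 mitochondrial genes. Among all genes tested that had a window, 209 of 9725 (2.15%) held one, and among all windows given there were 1328 of 33469 (3.97%). The 7 genes were Aars, Cars, Iars, Mars, Nars, Tars and Yars. In 5 of them, Cars, Mars, Nars, Tars and Yars, the matched letters were the same word, TGATGCAAC, on one strand or the other. Iars and the upstream match of Aars shared TGATGCAAT. The palindrome TGACGTCA, the cyclic AMP response element, was in no member's window, against 3.26% of tested genes. A match is a description of the letters in the window, not a shown binding site.

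The sequences below carry those matches, in capitals, and are printed on the strand of the gene. Aars, the gene with 2 matches, is shown over its whole window at chr19:55908232-55908531 (plus strand), where the matches begin at -113 and +8, counting the first base of the gene as 0. The others are shown with up to 30 bases on each side: Cars at chr1:208225320-208225383 (minus strand, match from +16), Iars at chr17:15193639-15193707 (minus strand, match from -25), Mars at chr7:65023733-65023801 (minus strand, match from -18), Tars at chr2:62114792-62114860 (minus strand, match from -28) and Yars at chr5:146820171-146820212 (plus strand, match from +38). In Aars, Cars, Iars, Mars and Tars the capitals read as the reverse complement of the motif. In Nars, named only, the match began at -14.
Aars: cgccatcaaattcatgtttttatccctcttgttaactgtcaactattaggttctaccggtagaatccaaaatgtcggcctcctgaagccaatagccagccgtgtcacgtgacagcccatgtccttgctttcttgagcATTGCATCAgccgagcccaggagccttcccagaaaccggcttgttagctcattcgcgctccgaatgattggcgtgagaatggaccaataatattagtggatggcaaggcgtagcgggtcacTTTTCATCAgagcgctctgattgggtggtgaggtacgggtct
Cars: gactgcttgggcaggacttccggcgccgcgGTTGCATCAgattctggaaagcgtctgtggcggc
Iars: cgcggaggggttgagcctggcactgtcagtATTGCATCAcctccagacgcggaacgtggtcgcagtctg
Mars: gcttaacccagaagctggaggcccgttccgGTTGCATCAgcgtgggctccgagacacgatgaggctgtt
Tars: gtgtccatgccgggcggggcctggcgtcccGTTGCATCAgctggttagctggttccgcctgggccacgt
Yars: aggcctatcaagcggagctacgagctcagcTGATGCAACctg

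Tardbp was at 24.8 ± 4.50 CPM (counts scaled to the effective library size; SD, n = 3) with TDP-43 siRNA and 26.2 ± 2.38 CPM with TDP-43 siRNA and ATP, against 169 ± 10.7 CPM with scrambled siRNA, which is 14.6% and 15.5% of the scrambled level. Library totals ran from 11519798 counts (scrambled replicate 2) to 40420582 counts (scrambled replicate 1). The scaling factors computed by edgeR (TMM) were 1.022 to 1.081 in the 6 TDP-43 siRNA libraries with or without ATP, against 0.8928 to 0.9244 in the scrambled libraries. Gfap, the astrocyte filament gene, was at 2329 ± 475 CPM with TDP-43 siRNA, 2585 ± 251 CPM with ATP added and 2489 ± 337 CPM with scrambled siRNA. The summed level of 8 fibroblast, mural and endothelial markers was 1265 to 1870.0 CPM with TDP-43 siRNA and 1559 to 1597 CPM with ATP added, against 3910.0 to 5219 CPM with scrambled siRNA. Of the 5 tested, Acta2, Pdgfrb and Col1a1 fell in both comparisons with scrambled siRNA, and Col1a2 and Cldn5 were at 0 in all 9 libraries. Summed astrocyte markers (8 genes, 1 rose and 4 fell with TDP-43 siRNA) were 3927 to 4948 CPM with TDP-43 siRNA, 4525 to 5226 CPM with ATP added and 5054 to 6209.7 CPM with scrambled siRNA. With TDP-43 siRNA, Slc1a2 rose and Aqp4, Slc1a3, S100b and Glul fell. Their log2 fold changes reached 2.14 (Slc1a2) and -1.14 (Aqp4), while Gfap was not called (-0.10). Summed microglial markers (6 genes, 0 rose and 1 fell) were 119.5 to 151 CPM with TDP-43 siRNA, 127 to 166 CPM with ATP added and 158 to 192 CPM with scrambled siRNA. Neuronal markers (5 of 6 tested, 2 rose and 1 fell) summed to 63.1 to 71.3 CPM with TDP-43 siRNA, 66.7 to 70.2 CPM with ATP added and 53.2 to 60.3 CPM with scrambled siRNA. Oligodendrocyte lineage markers (7 genes, 3 rose and 3 fell) summed to 147 to 184 CPM with TDP-43 siRNA, 185 to 229 CPM with ATP added and 153 to 200.2 CPM with scrambled siRNA. The part of cell makeup in the synthetase results was not tested.

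The first comparison asked how the synthetase genes stood after TDP-43 knockdown. Of the 20 cytosolic genes, 7 rose (Aars, Cars, Farsb, Mars, Nars, Tars and Wars), 1 fell (Qars) and 12 did not pass the test, an adjusted p under 0.05 in edgeR's quasi-likelihood test. Of the 14 mitochondrial genes, 5 rose (Hars2, Lars2, Nars2, Rars2 and Tars2), 0 fell and 9 did not pass. Among all genes tested, 16.2% rose and 18.2% fell, so the share of members that rose (35.0% cytosolic, 35.7% mitochondrial) was above the share over all genes, and the share that changed in either direction, 13 of 34, was near the 34.3% over all genes. The median log2 fold change was 0.23 over the cytosolic and 0.22 over the mitochondrial genes, against 0.01 over all genes tested. All changes were small: the 12 rises lay between a log2 fold change of 0.29 (Tars, 1.22-fold) and 0.63 (Nars2, 1.55-fold). The cytosolic count depended on single libraries: it was 10 without scrambled replicate 1, 3 without scrambled replicate 3, and 4 without scrambled replicate 2 or without any 1 of the 6 siRNA libraries. Scaling by total counts alone gave 14 cytosolic rises and 0 falls, and under it the median over all genes was 0.18. The mitochondrial count was 3 without TDP-43 siRNA replicate 1. Beside the losses without single libraries given for each gene, a fit of the compared groups alone lost Mars, Tars, Wars, Lars2 and Nars2 with TDP-43 siRNA and Aars with ATP. A replicate block lost Mars and Tars with TDP-43 siRNA, and Aars and Lars2 with ATP.

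**Figure D1:**
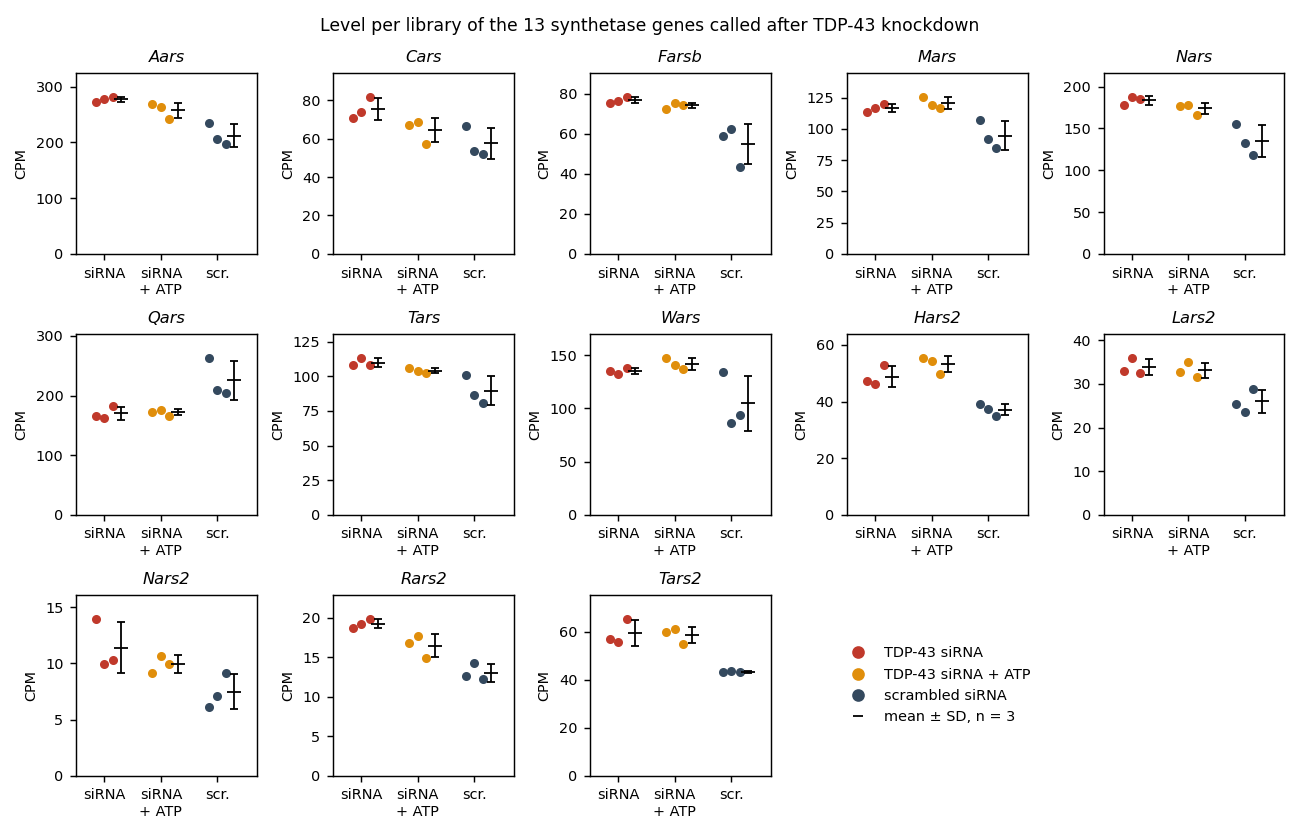
Level of the 13 synthetase genes called after TDP-43 knockdown. Each panel shows CPM (TMM-scaled) on the y axis by group on the x axis (scr., scrambled siRNA); each point is a library and the bar is the mean ± SD of 3. The means of both siRNA groups lie above scrambled siRNA in all panels but Qars, where they lie below, and in Wars without ATP and in Cars and Nars2 with ATP the libraries overlap scrambled siRNA.

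The class II cytosolic enzymes gave 4 rises (36.4%) and 0 falls in 11 genes with TDP-43 siRNA, with a median log2 fold change of 0.21. The shares over all genes tested were 16.2% for rises and 18.2% for falls. Aars, the alanyl enzyme, had 272, 278 and 282 CPM with TDP-43 siRNA, 268, 263 and 242 CPM with TDP-43 siRNA and ATP, and 234, 206 and 196 CPM with scrambled siRNA. All 6 knockdown libraries were above all 3 scrambled ones. Against scrambled siRNA its log2 fold change was 0.38 (SE 0.10, adjusted p = 0.00844) with TDP-43 siRNA and 0.28 (SE 0.10, adjusted p = 0.0411) with ATP added, by edgeR's quasi-likelihood test as in all that follow. The call without ATP passed under every alternative run, and the one with ATP was lost without any library other than scrambled replicate 1 or TDP-43 siRNA replicate 2 (adjusted p up to 0.141). Nars, the asparaginyl enzyme, had 177, 188 and 185 CPM with TDP-43 siRNA, 177, 178 and 166 CPM with ATP added and 156, 132 and 118 CPM with scrambled siRNA. Again no siRNA library overlapped a scrambled one, and the scrambled libraries were the more spread. The log2 fold change of Nars was 0.44 (SE 0.11, adjusted p = 0.00558) and, with ATP, 0.36 (SE 0.11, adjusted p = 0.016). The value without ATP kept its call under every alternative; the value with ATP lost it without scrambled replicate 3 or ATP replicate 1 or 2 (adjusted p up to 0.061). Tars, the threonyl enzyme, had 108, 113 and 108 CPM with TDP-43 siRNA, 106, 104 and 102 CPM with ATP added and 101, 86.8 and 80.9 CPM with scrambled siRNA. The highest scrambled library lay just under the lowest ATP library. On the log2 scale the change was 0.29 (SE 0.10, adjusted p = 0.0371) with TDP-43 siRNA and, with no call, 0.21 (SE 0.10, adjusted p = 0.114) with ATP. The call was lost without any single library except scrambled replicate 1, with an adjusted p of up to 0.116.

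Farsb and Farsa encode the beta and alpha subunits of the cytosolic phenylalanyl enzyme, which works only as a complex of both. Farsb had 75.5, 76.5 and 78.5 CPM with TDP-43 siRNA, 72.6, 75.3 and 74.6 CPM with ATP added and 59.0, 62.5 and 43.4 CPM with scrambled siRNA. The siRNA groups were tight, and the scrambled libraries were all lower and more spread. Its log2 fold change of 0.48 (SE 0.12, adjusted p = 0.00603) with TDP-43 siRNA and 0.43 (SE 0.12, adjusted p = 0.0107) with ATP passed under every alternative run. Farsa had 87.8, 79.3 and 102 CPM with TDP-43 siRNA, 89.2, 85.3 and 76.9 CPM with ATP added and 108, 83.7 and 81.3 CPM with scrambled siRNA, and the groups overlapped. The log2 fold change of Farsa was -0.02 (SE 0.13, adjusted p = 0.92) and, with ATP, -0.12 (SE 0.13, adjusted p = 0.485). The ratio of Farsb to Farsa counts within a library, a measure chosen after the values were seen, does not depend on the scaling between libraries. It was 0.859, 0.965 and 0.766 with TDP-43 siRNA, 0.814, 0.883 and 0.970 with ATP added, and 0.547, 0.747 and 0.534 with scrambled siRNA. The siRNA groups did not overlap the scrambled group, and the ratio of means was 1.42 without and 1.46 with ATP. Two-sided exact permutation p was 0.1 for each ratio, the smallest that 3 against 3 libraries allow. Neither subunit gene held the C/EBP-ATF element in its window.

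**Figure D2:**
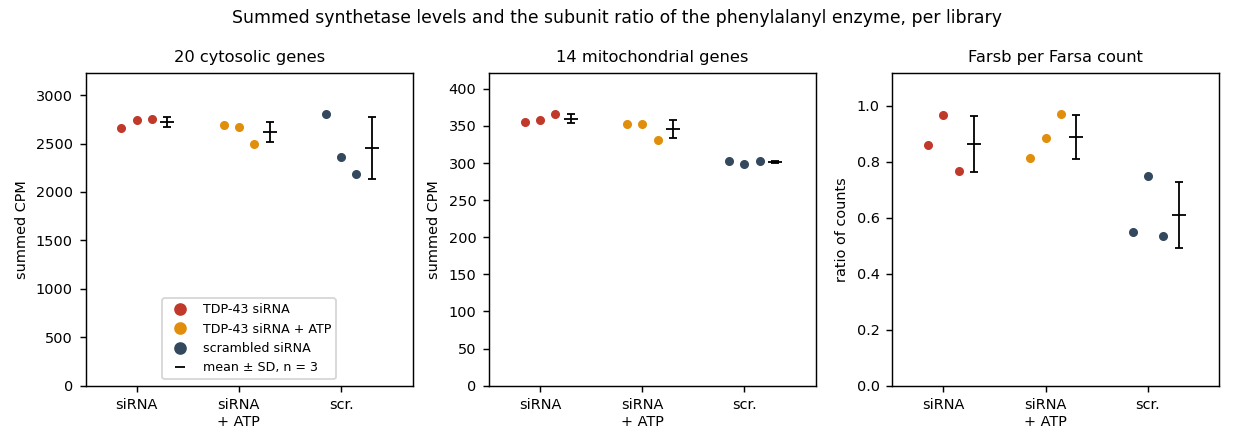
Summed CPM of the 20 cytosolic genes (left) and the 14 mitochondrial genes (middle), and the ratio of Farsb to Farsa counts (right), on the y axes, by group on the x axes (scr., scrambled siRNA). Points are libraries and bars are the mean ± SD of 3; the cytosolic sums overlap through scrambled replicate 1, while the mitochondrial sums and the subunit ratio do not overlap between siRNA and scrambled libraries.

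Class I cytosolic enzymes, with Eprs counted in both classes, gave 3 rises and 1 fall in 10 genes, with a median of 0.23. Cars, the cysteinyl enzyme, had 70.6, 73.9 and 81.7 CPM with TDP-43 siRNA, 67.1, 68.8 and 57.4 CPM with ATP added and 66.7, 53.7 and 52.1 CPM with scrambled siRNA. Libraries with TDP-43 siRNA alone were all above the scrambled ones, and those with ATP overlapped them. The log2 fold change of Cars was 0.39 (SE 0.12, adjusted p = 0.0202) and, with ATP, 0.16 (SE 0.12, adjusted p = 0.314). The call was lost without scrambled replicate 2 or 3 or TDP-43 siRNA replicate 3 (adjusted p up to 0.0784). Mars, the methionyl enzyme, had 114, 117 and 120.1 CPM with TDP-43 siRNA, 126, 119 and 116 CPM with ATP added and 107, 92.1 and 84.8 CPM with scrambled siRNA. Every siRNA library was above every scrambled one. The fitted log2 fold change was 0.30 (SE 0.10, adjusted p = 0.0343) with TDP-43 siRNA, a call lost without any single library but scrambled replicate 1 (adjusted p up to 0.112), and 0.34 (SE 0.10, adjusted p = 0.0162) with ATP, a call lost without scrambled replicate 3 or ATP replicate 1 (adjusted p up to 0.071).

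Wars encodes the tryptophanyl enzyme and is an interferon-inducible gene. It had 135, 132 and 138 CPM with TDP-43 siRNA, 148, 140.2 and 137 CPM with ATP added and 134, 86.1 and 94.0 CPM with scrambled siRNA. Scrambled replicate 1 stood with the TDP-43 siRNA libraries and the other scrambled libraries were well below. The log2 fold change of Wars was 0.36 (SE 0.13, adjusted p = 0.0468) with TDP-43 siRNA and 0.43 (SE 0.13, adjusted p = 0.0194) with ATP. Its call with TDP-43 siRNA was lost without any single library but scrambled replicate 1 (adjusted p up to 0.164), without which it was 0.000181; the call with ATP was lost without scrambled replicate 2 or 3 or ATP replicate 1 (adjusted p up to 0.0779).

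Qars, the glutaminyl enzyme, was the only synthetase gene that fell. It had 165, 162 and 183 CPM with TDP-43 siRNA, 173, 176 and 166 CPM with ATP added and 264, 209 and 204 CPM with scrambled siRNA. Every siRNA library was below every scrambled one, and scrambled replicate 1 was the highest of the 9. For Qars the log2 fold change was -0.41 (SE 0.11, adjusted p = 0.0106) with TDP-43 siRNA and -0.39 (SE 0.11, adjusted p = 0.0115) with ATP. The fall was lost without TDP-43 siRNA replicate 1 and, with ATP, without ATP replicate 3, and under scaling by total counts it was -0.24 (adjusted p = 0.112) and -0.17 (adjusted p = 0.237).

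Of the 8 synthetase genes of the multisynthetase complex, 1 rose (Mars), 1 fell (Qars) and 6 did not pass, with a median log2 fold change of 0.19. The shares, 12.5% in each direction, were near or below the 16.2% and 18.2% over all genes tested. Those 6 ranged from -0.01 (Kars) through 0.02 (Lars), 0.13 (Eprs), 0.25 (Rars) and 0.27 (Dars) to 0.32 (Iars), and the smallest adjusted p was 0.0828, for Iars. The 3 scaffold genes, Aimp1 (0.20), Eef1e1 (0.18) and Aimp2 (0.11), also did not pass, and the smallest adjusted p was 0.154. The list had 3 rises without scrambled replicate 1, 0 rises without scrambled replicate 3, TDP-43 siRNA replicate 1 or 2 or any ATP library, and 0 falls without TDP-43 siRNA replicate 1.

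Gars and Kars, the genes that serve both compartments, gave no call. Gars had 136, 132 and 131 CPM with TDP-43 siRNA, 125, 126 and 117 CPM with ATP added and 157, 136 and 109 CPM with scrambled siRNA, and its log2 fold change was -0.01 (SE 0.12, adjusted p = 0.965) and, with ATP, -0.13 (SE 0.12, adjusted p = 0.422). Kars had 206, 219.8 and 226 CPM with TDP-43 siRNA, 229, 229.7 and 217 CPM with ATP added and 252, 220.5 and 183 CPM with scrambled siRNA, and its log2 fold change was -0.01 (SE 0.11, adjusted p = 0.955) and, with ATP, 0.04 (SE 0.11, adjusted p = 0.806). In both genes the scrambled libraries spanned the range of the siRNA libraries. Yars, the tyrosyl enzyme, had 88.2, 83.5 and 94.2 CPM with TDP-43 siRNA, 85.0, 81.5 and 78.6 CPM with ATP added and 86.7, 77.3 and 73.4 CPM with scrambled siRNA. Its groups overlapped, with a log2 fold change of 0.16 (SE 0.10, adjusted p = 0.232) and, with ATP, 0.04 (SE 0.10, adjusted p = 0.767). The remaining cytosolic genes with no call were Vars (0.22, adjusted p = 0.106) and Sars (-0.10, adjusted p = 0.57).

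The spread within the scrambled group had a common direction in the cytosolic genes. Scrambled replicate 1, the library with the most counts, was the highest of its group in 17 of 20 cytosolic genes, and scrambled replicate 3 was the lowest in 15. The summed cytosolic level was 2665, 2746 and 2758 CPM with TDP-43 siRNA, 2689.5, 2666 and 2500.0 CPM with ATP added and 2805, 2366 and 2188 CPM with scrambled siRNA. The highest and the lowest sum of the 9 libraries were both in the scrambled group, and the groups overlapped. In mitochondrial genes, the number in which each scrambled library was the highest was 3, 6 and 5. Their sum was 355, 358 and 366 CPM with TDP-43 siRNA, 352, 353 and 331 CPM with ATP added and 302, 299 and 303 CPM with scrambled siRNA. Here the scrambled libraries were nearly equal and all siRNA libraries were higher.

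**Figure D3:**
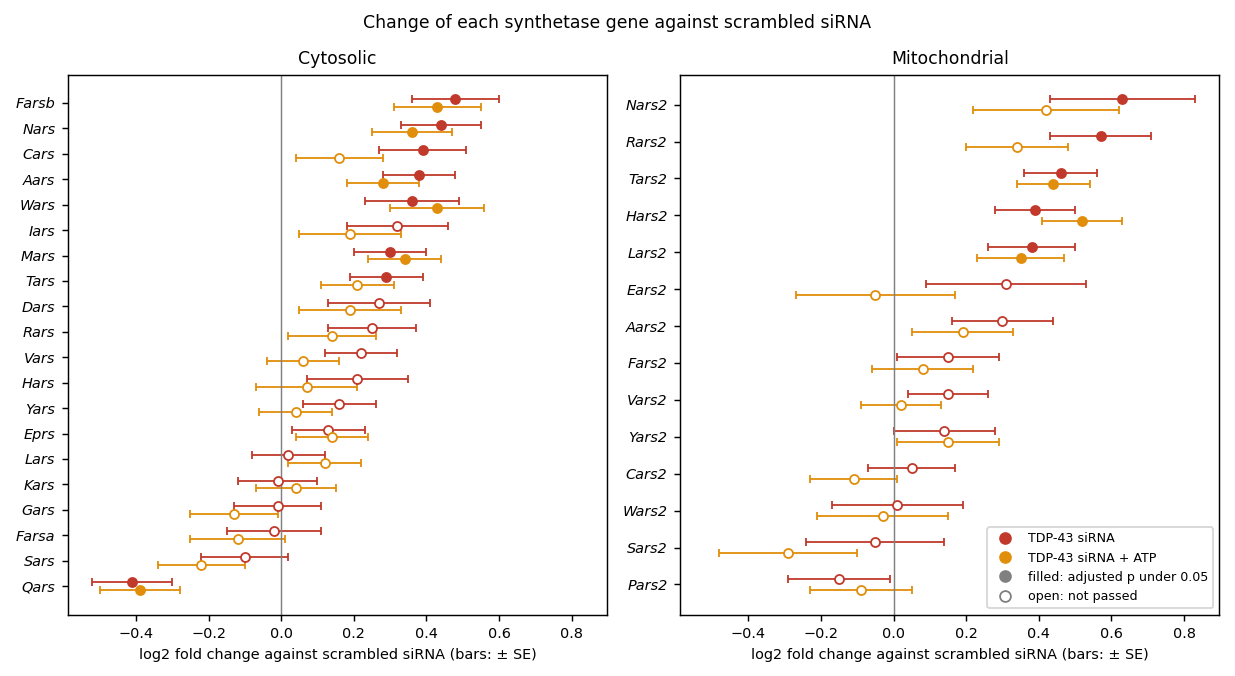
log2 fold change (x axis) of each cytosolic (left) and mitochondrial (right) synthetase gene against scrambled siRNA, ± SE, with TDP-43 siRNA (red) and TDP-43 siRNA and ATP (orange); filled points have an adjusted p under 0.05. Most points lie right of 0, Qars stands alone at -0.41 and -0.39, and no mitochondrial gene fell.

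Among mitochondrial enzymes, the class II genes gave 3 rises in 7 (42.9%) and the class I genes 2 in 7 (28.6%). The share of rises over all genes tested was 16.2%. The class medians were 0.30 and 0.15, and the difference between the classes was not tested. Tars2, the threonyl enzyme, had 57.0, 55.5 and 65.4 CPM with TDP-43 siRNA, 60.0, 61.1 and 54.6 CPM with ATP added and 43.0, 43.6 and 43.0 CPM with scrambled siRNA. The scrambled libraries were almost equal and all lower. Its log2 fold change was 0.46 (SE 0.10, adjusted p = 0.00293) and, with ATP, 0.44 (SE 0.10, adjusted p = 0.00341). Hars2, the histidyl enzyme, had 47.4, 46.2 and 52.9 CPM with TDP-43 siRNA, 55.5, 54.4 and 49.9 CPM with ATP added and 39.1, 37.4 and 35.0 CPM with scrambled siRNA. Here too every siRNA library was above the scrambled ones, and the log2 fold change was 0.39 (SE 0.11, adjusted p = 0.00935) and, with ATP, 0.52 (SE 0.11, adjusted p = 0.00126). The calls of Tars2 and Hars2 passed in both comparisons under every alternative run. In human, HARS and HARS2 are neighbours read in opposite directions from a shared promoter region. Hars, the cytosolic histidyl gene, had 77.8, 78.2 and 82.9 CPM with TDP-43 siRNA, 76.9, 76.1 and 63.9 CPM with ATP added and 80.1, 73.7 and 52.4 CPM with scrambled siRNA, and the groups overlapped. With no call, its log2 fold change was 0.21 (SE 0.14, adjusted p = 0.257) and, with ATP, 0.07 (SE 0.14, adjusted p = 0.724).

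Rars2, the mitochondrial arginyl enzyme, whose mutation causes pontocerebellar hypoplasia in human, had 18.7, 19.2 and 19.9 CPM with TDP-43 siRNA, 16.8, 17.7 and 14.9 CPM with ATP added and 12.6, 14.3 and 12.2 CPM with scrambled siRNA. Levels with TDP-43 siRNA were the highest, levels with ATP next and scrambled levels the lowest, with no overlap between any pair of groups. The log2 fold change was 0.57 (SE 0.14, adjusted p = 0.0049), a call that passed under every alternative, and 0.34 (SE 0.14, adjusted p = 0.0602) with ATP. Lars2, the leucyl enzyme, had 33.0, 36.0 and 32.5 CPM with TDP-43 siRNA, 32.8, 34.9 and 31.6 CPM with ATP added and 25.5, 23.5 and 28.9 CPM with scrambled siRNA. The siRNA groups lay together above all scrambled libraries. Its log2 fold change was 0.38 (SE 0.12, adjusted p = 0.0212), lost without scrambled replicate 2 or TDP-43 siRNA replicate 1 or 2 (adjusted p up to 0.069), and with ATP it was 0.35 (SE 0.12, adjusted p = 0.0285), lost without scrambled replicate 2 or any ATP library (adjusted p up to 0.114). Nars2, the asparaginyl enzyme and a low-count gene, had 14.0, 9.91 and 10.3 CPM with TDP-43 siRNA, 9.12, 10.7 and 9.94 CPM with ATP added and 6.14, 7.12 and 9.17 CPM with scrambled siRNA. TDP-43 siRNA replicate 1 was the highest library. For Nars2 the log2 fold change was 0.63 (SE 0.20, adjusted p = 0.0227), lost without scrambled replicate 1 or TDP-43 siRNA replicate 1 (adjusted p up to 0.137), and 0.42 (SE 0.20, adjusted p = 0.105) with ATP.

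The other 9 mitochondrial genes had no call with TDP-43 siRNA, with or without ATP. Without ATP their log2 fold changes were 0.31 for Ears2, 0.30 for Aars2, 0.15 for Fars2 and Vars2, 0.14 for Yars2, 0.05 for Cars2, 0.01 for Wars2, -0.05 for Sars2 and -0.15 for Pars2, the prolyl enzyme. Fars2 and Vars2 nevertheless had libraries with no overlap: Vars2 had 31.1, 30.9 and 30.8 CPM with TDP-43 siRNA and 27.2, 29.5 and 27.1 CPM with scrambled siRNA. Over all members, the TDP-43 siRNA libraries were all above the scrambled ones in 6 of 20 cytosolic and 7 of 14 mitochondrial genes, against 20.7% of all genes tested, and all below in 1 (Qars), against 20.9%. Ears2, which starts the glutamine route of mitochondria, had an adjusted p of 0.297. Gatc, a subunit of the amidotransferase that completes that route, fell to 52.7, 40.4 and 51.2 CPM with TDP-43 siRNA and 41.5, 44.2 and 40.6 CPM with ATP added, against 61.8, 61.1 and 61.5 CPM with scrambled siRNA. Its log2 fold change was -0.35 (SE 0.11, adjusted p = 0.0245) and, with ATP, -0.55 (SE 0.11, adjusted p = 0.00139). The call without ATP was lost without TDP-43 siRNA replicate 2, in a fit of the compared groups alone and under scaling by total counts. Qrsl1, another subunit gene of the same enzyme, had no call, at a log2 fold change of 0.30 (SE 0.17, adjusted p = 0.2) and, with ATP, 0.29 (SE 0.17, adjusted p = 0.203).

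For 11 amino acids, the mitochondrial and cytosolic genes were paired by symbol, alike but for the final 2. The ratio of mitochondrial to cytosolic counts within a library was compared, a measure also chosen after the values were seen. Ears2, Fars2 and Pars2, whose cytosolic partners Eprs, Farsa and Farsb have other symbols, were not paired. With TDP-43 siRNA against scrambled siRNA, the ratio was higher with no overlap for 2 pairs and overlapped for 9. Lars2 per Lars count was 0.339, 0.346 and 0.339 with TDP-43 siRNA, against 0.253, 0.226 and 0.324 with scrambled siRNA, a ratio of means of 1.27. Rars2 per Rars count was 0.147, 0.155 and 0.146 with TDP-43 siRNA, against 0.115, 0.114 and 0.134 with scrambled siRNA, a ratio of means of 1.23. With ATP added the pairs with no overlap were the histidyl and threonyl ones, Hars2 per Hars count being 0.721, 0.715 and 0.781, against 0.488, 0.507 and 0.667 with scrambled siRNA. Exact permutation tests gave p = 0.1 at best, or 0.55 after adjustment over the 11 pairs; with 3 libraries a group this test cannot reach 0.05.

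Set beside the promoter windows printed above, the 7 cytosolic genes with the C/EBP-ATF element gave 5 rises and 0 falls after TDP-43 knockdown, with a median log2 fold change of 0.32 and a range of 0.16 (Yars) to 0.44 (Nars). Iars and Yars, with the element, did not pass the test. The 10 genes with a window and no match gave 2 rises (Farsb and Wars) and 1 fall (Qars), with a median of 0.07. Over all genes tested, 16.2% rose and 18.2% fell. With ATP added, the genes with the element gave 3 rises and those without it 2 rises and 1 fall, with medians of 0.21 and 0.06. In that comparison 17.4% of all genes tested rose and 20.0% fell. Of the 5 rises with the element, Cars, Mars and Tars lost the call when single libraries were left out, as given above. The 3 cytosolic genes with no window, Dars, Gars and Rars, gave 0 rises with TDP-43 siRNA, with a median of 0.25. None of the 14 mitochondrial genes held a match, and with TDP-43 siRNA 5 of them rose, with a median of 0.22. No test was made of the difference between genes with and without a match.

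**Figure D4:**
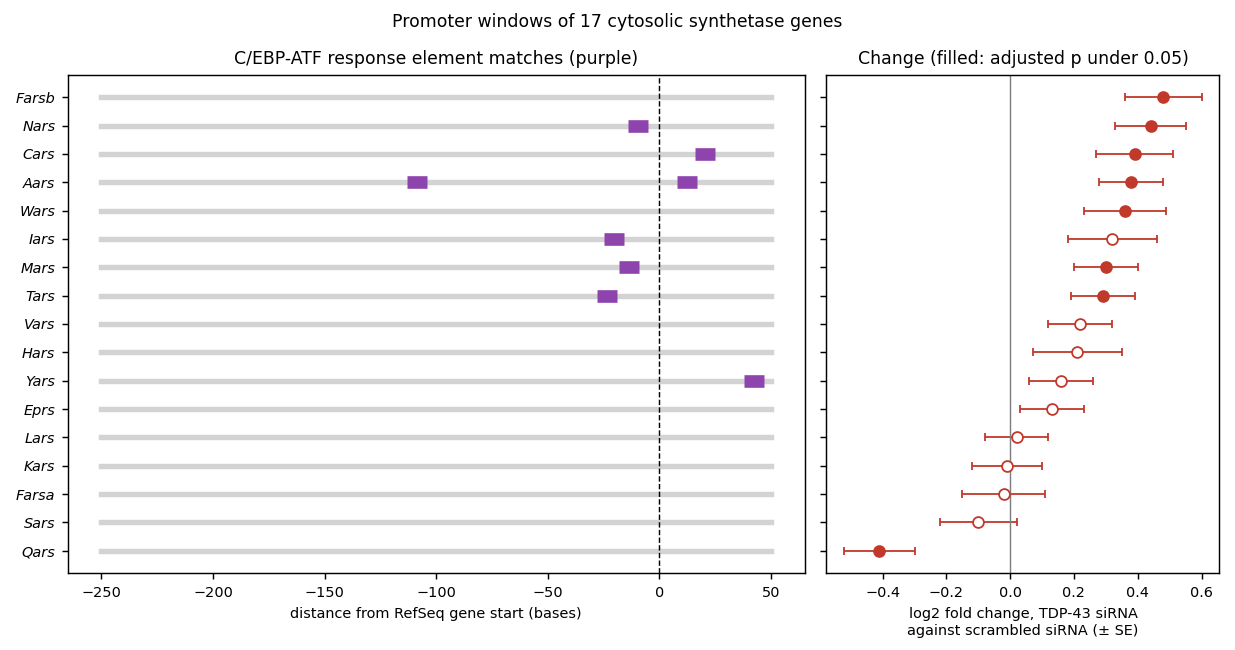
Left, position (x axis, bases from the RefSeq gene start) of C/EBP-ATF response element matches, in purple, in the promoter windows of 17 cytosolic synthetase genes, sorted by fold change. Right, the log2 fold change of the same genes with TDP-43 siRNA against scrambled siRNA, ± SE, filled where the adjusted p is under 0.05; 5 of the 7 genes with a match rose, and Farsb, Wars and Qars changed without one.

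The second comparison set TDP-43 siRNA and ATP against the same scrambled libraries, so its values are not independent of the first. It gave 5 cytosolic rises, 1 cytosolic fall and 3 mitochondrial rises, where 17.4% of all genes rose and 20.0% fell (37.4% in either direction). All 8 rises were among the 12 called with TDP-43 siRNA alone, and Cars, Tars, Nars2 and Rars2 were called without ATP but not with it. The medians were 0.14 over the cytosolic and 0.11 over the mitochondrial genes. Farsb, Hars2 and Tars2 were the calls that passed under every alternative. The number of cytosolic rises was 1 without scrambled replicate 3 or ATP replicate 1 and 3 without scrambled replicate 2 or ATP replicate 2, and 14 with 0 falls under scaling by total counts, which moved the median of all genes to 0.24. The ATP libraries were all above the scrambled ones in 6 cytosolic and 5 mitochondrial genes, against 24.7% of all genes, and all below in Qars, against 24.1%.

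The third comparison, of knockdown cells with against without ATP, tested whether that difference in calls is itself a difference. None of the 34 genes passed, against 1.07% of all genes (0.926% rose and 0.141% fell); none had an unadjusted p under 0.05, the smallest adjusted p was 0.46, and DESeq2 also called 0. The log2 fold changes ran from -0.36 (Ears2) to 0.12 (Hars2), with SEs from 0.10 to 0.21, and were below 0 in 25 of 34 genes, with a median of -0.09 in both compartments. In 9 genes all libraries with ATP were below all those without it (Aars, Cars, Farsb, Gars, Hars, Tars, Vars, Rars2 and Vars2), against 12.7% of all genes, and in 0 genes all were above, against 13.0%. Cars had the largest difference of these 9, at 67.1, 68.8 and 57.4 CPM with ATP and 70.6, 73.9 and 81.7 CPM without it, a log2 fold change of -0.23 (SE 0.12, adjusted p = 0.46). Rars2 was next, at 16.8, 17.7 and 14.9 CPM with ATP and 18.7, 19.2 and 19.9 CPM without it, a log2 fold change of -0.22 (SE 0.13, adjusted p = 0.546). In the ATP group, replicate 3 was the lowest library in 16 of 20 cytosolic genes.

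Genes that work beside the synthetases were read from the same fit. Of 30 tested genes of the ATF4 amino acid response, 12 rose and 7 (23.3%) fell with TDP-43 siRNA. The median log2 fold change of the list was 0.32. Among all genes tested, 16.2% rose and 18.2% fell, so the share of falls in the list was somewhat above that over all genes. With ATP added, 17.4% of all genes rose and 20.0% fell, and in the list 11 rose and 8 (26.7%) fell. The 6 genes with the smallest adjusted p were the cystine transporter gene Slc7a11 (2.23, SE 0.26, adjusted p = 1.17e-05), the cationic amino acid transporter gene Slc7a1 (1.16, SE 0.15, adjusted p = 2.08e-05), Ddit4 (-0.84, SE 0.15, adjusted p = 0.00046), Cebpb (0.84, SE 0.15, adjusted p = 0.000638), Sesn2 (0.51, SE 0.11, adjusted p = 0.00162) and Atf3 (0.57, SE 0.13, adjusted p = 0.00249). The C/EBP-ATF element was in the window of 6 of the 28 listed genes that had one (21.4%). Of these, Slc7a1, Trib3 (1.43, adjusted p = 0.00528) and Slc1a4 (0.42, adjusted p = 0.0212) rose, Pycr1, an enzyme of proline synthesis, fell (-0.63, adjusted p = 0.0262), Chac1 had no call (0.49, adjusted p = 0.185) and Nupr1 did not pass the filter on low counts. Slc7a1 had 39.2, 43.8 and 31.0 CPM with TDP-43 siRNA, 36.7, 38.7 and 40.2 CPM with ATP added and 17.9, 18.7 and 14.3 CPM with scrambled siRNA, and both siRNA groups lay above the scrambled one. Other genes of the list were picked with their values known: Asns, the asparagine synthetase gene, rose, with a log2 fold change of 0.42 (SE 0.11, adjusted p = 0.00801), and Phgdh, the first enzyme of serine synthesis, had a log2 fold change of -0.43 (SE 0.13, adjusted p = 0.0151) with overlapping libraries. Atf4 itself had 241, 231 and 265 CPM with TDP-43 siRNA and 243, 267 and 220.1 CPM with scrambled siRNA, a log2 fold change of 0.01 (SE 0.11, adjusted p = 0.94); ATF4 is regulated largely in translation, which was not measured here. The number of rises in the list was 7 without scrambled replicate 3, and the number of falls was 2 without TDP-43 siRNA replicate 1, 4 without scrambled replicate 1 and 1 under scaling by total counts. Of the 7 tested genes of the kinases, substrate and phosphatases around eIF2 alpha, 2 rose (28.6%) and 1 fell (14.3%). The shares over all genes were 16.2% and 18.2%, and without TDP-43 siRNA replicate 2 the list had 2 falls. Eif2ak2, the kinase that senses double-stranded RNA, rose (0.64, SE 0.12, adjusted p = 0.00104) and Eif2ak4, the one that senses uncharged tRNA, fell (-0.58, SE 0.13, adjusted p = 0.00246), at 21.3, 22.1 and 23.0 CPM with TDP-43 siRNA and 28.9, 32.0 and 38.5 CPM with scrambled siRNA.

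**Figure D5:**
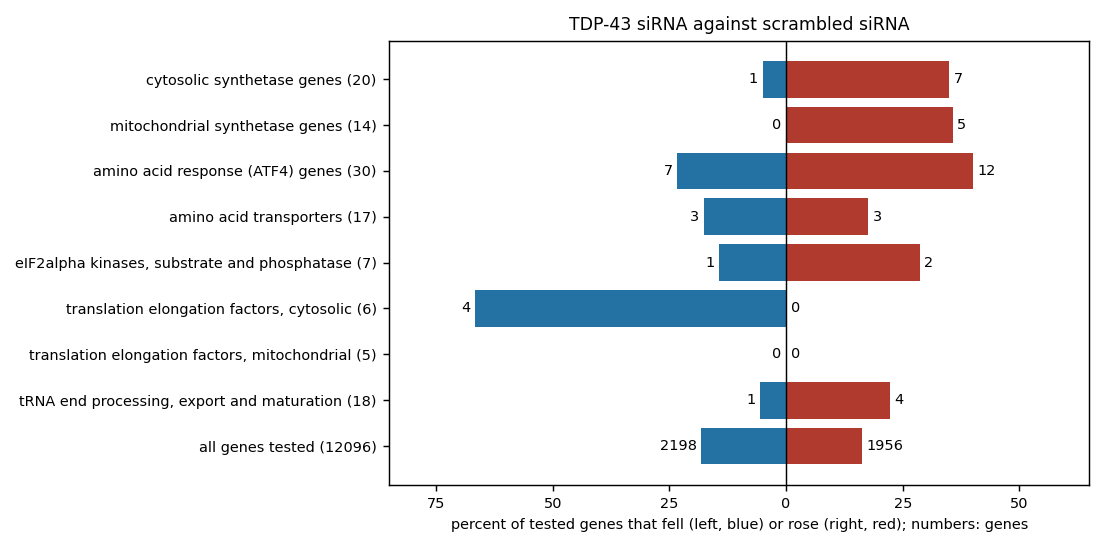
Percent of tested genes that rose (right, red) or fell (left, blue) with TDP-43 siRNA against scrambled siRNA, on the x axis, for each gene list and for all genes tested; the number of genes is written beside each bar and the number tested in brackets. Both synthetase lists have a share of rises near 35% and few falls, while 4 of 6 cytosolic elongation factor genes fell and 0 rose.

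Downstream of the synthetases, 4 of 6 genes for cytosolic elongation factors (66.7%) fell and 0 rose with TDP-43 siRNA, with a median of -0.41. Over all genes tested, 18.2% fell and 16.2% rose. Eef1b2, which recharges the factor that carries loaded tRNA to the ribosome, fell to 584, 651 and 489 CPM with TDP-43 siRNA and 506, 406 and 386 CPM with ATP added, against 838, 1079 and 1140.5 CPM with scrambled siRNA. In the fit this was a log2 fold change of -0.83 (SE 0.15, adjusted p = 0.000607) and, with ATP, -1.24 (SE 0.15, adjusted p = 1.78e-05). Eef1g (-0.55, adjusted p = 0.00997), Eef2 (-0.46, adjusted p = 0.0225) and Eef1d (-0.33, adjusted p = 0.0323) were the other falls, and Eef1a1 was at -0.35 (adjusted p = 0.116). The number of falls was 2 without TDP-43 siRNA replicate 1 or 2 and 2 under scaling by total counts. Of 5 mitochondrial elongation factor genes, 0 were called with TDP-43 siRNA, against 34.3% of all genes in either direction. Their median was 0.06 and the smallest adjusted p was 0.102. With ATP added, 1 of the 5 (20.0%) rose, Guf1 (0.31, adjusted p = 0.0475), against 17.4% of all genes.

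Upstream, the tRNA handling genes gave 4 rises (22.2%) and 1 fall (5.56%) of 18 tested, against 16.2% and 18.2% of all genes, with a median of -0.01. The fall was Xpot, the exportin that carries tRNA out of the nucleus. It had 29.2, 30.1 and 29.3 CPM with TDP-43 siRNA, 35.7, 34.6 and 34.4 CPM with ATP added and 66.0, 55.8 and 68.8 CPM with scrambled siRNA. Its levels with TDP-43 siRNA were nearly equal and under the lowest scrambled library by a wide margin. For Xpot the log2 fold change was -1.11 (SE 0.11, adjusted p = 2e-06) and, with ATP, -0.87 (SE 0.11, adjusted p = 1.84e-05). The rises were Pop1 (0.75), a subunit of the ribonuclease that trims the start of tRNA precursors, Clp1 (0.56), Tsen54 (0.52) and Tsen15 (0.38), the last 3 parts of the tRNA splicing machinery. Without scrambled replicate 1 or 3 the list had 2 falls. Amino acid transporter genes gave 3 rises and 3 falls of 17, or 17.6% in each direction, near the shares over all genes, with a median of -0.11, and 7 of the 17 are also in the ATF4 list. The falls were Slc1a5 (-0.62), Slc43a2 (-0.45) and Slc7a5 (-0.34), and they dropped to 1 without scrambled replicate 1 or 3 or TDP-43 siRNA replicate 1 and to 0 under scaling by total counts. In the list of editing and synthetase-like genes, which also holds Iars, Lars and Vars, 0 rose and 3 of 10 fell, namely Gatc (-0.35), Aarsd1 (-0.34) and Dtd1 (-0.39). That count of falls was 0 without TDP-43 siRNA replicate 2, in a fit of the compared groups alone or under scaling by total counts, and 1 under upper-quartile scaling, with a replicate block, or without scrambled replicate 2, TDP-43 siRNA replicate 1 or any ATP library.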

How the data were processed

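The authors deposited raw gene counts of poly(A) RNA for 9 libraries, made with a TruSeq kit per the labels' protocols. Per the submitters' processing notes, Trimmomatic, TopHat2, Bowtie2, DESeq2 and build rn6 were used, in roles that are not given. The counter, its annotation and its strand setting were not stated in the sources used, so reads shared by overlapping genes or near-identical copies may be split in ways that cannot be checked. The repeat tables were not used. The table's 26 rows with dates in place of gene names (0.286% to 0.331% of counts) were left out.

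From the deposited counts, edgeR 4.0.16 (R 4.3.3) gave TMM factors, CPM, a low-count filter and quasi-likelihood tests on all 9 libraries with 1 mean per group. P-values were adjusted by Benjamini-Hochberg over 12096 genes, with a threshold of 0.05. The steps were tested on simulated data whose changes were larger than most of those called in members. Members' SEs ran from 0.10 to 0.22 on 73 to 9793 counts per library; levels are not per length and are not compared between genes. Alternatives were other scalings, filters, a replicate block, the compared groups alone, DESeq2 1.42.0 and leaving out each library.

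All members could be named. Those called, and Hars, Gars, Kars, Wars and Yars, are given in full. Up to 6 genes of each companion list were picked by smallest adjusted p. Many of these are given without library values, and some with a log2 fold change only. The members, lists and motifs were chosen with earlier results of these data known. Promoter windows are from RefSeq (GRCr8), in which 16897 of 17311 symbols matched a gene. No protein sequences were used.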

Additional observations from a re-analysis of the deposited data

How the results depend on the processing

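Calls for Aars, Farsb, Nars, Hars2, Rars2 and Tars2 with TDP-43 siRNA, and for Farsb, Hars2 and Tars2 with ATP, passed under all 17 alternatives. Cytosolic rises numbered 14 and falls 0 under total-count scaling in both comparisons with scrambled siRNA, and mitochondrial rises with ATP 7. In a fit of the compared groups alone, rises with TDP-43 siRNA were 4 cytosolic and 3 mitochondrial. Without single libraries, cytosolic rises ranged from 3 to 10 and falls from 0 to 1 with TDP-43 siRNA, and from 1 to 7 and 0 to 1 with ATP. Mitochondrial rises ranged from 3 to 5 and from 2 to 4. Total-count scaling moved the calls over all genes from 1956 rises and 2198 falls to 3427 and 1436, and with ATP from 2106 and 2415 to 4099 and 1400. The cause of these changes was not tested.

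Correlations between the deviations of same-numbered libraries ran from -0.276 to 0.186, and of differently numbered ones from -0.153 to 0.306. With 3 libraries a group, these values cannot show whether the numbers pair libraries. With a replicate block, cytosolic rises were 5 (1 fall) and mitochondrial rises 5 with TDP-43 siRNA, and 4 (1 fall) and 2 with ATP.

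Values near 0 with no call changed sign. With TDP-43 siRNA, total-count scaling gave log2 fold changes of 0.15 for Farsa, 0.16 for Gars and 0.16 for Kars, and upper-quartile scaling 0.01 for Gars and 0.00 for Kars; the replicate block gave 0.00 for Gars. With ATP, total-count scaling gave 0.10 for Farsa and 0.10 for Gars. Without single libraries, the ranges with TDP-43 siRNA were -0.12 to 0.13 for Farsa, -0.14 to 0.13 for Gars, -0.12 to 0.11 for Kars and -0.04 to 0.06 for Lars. With ATP they were -0.20 to 0.03 for Farsa, -0.26 to 0.01 for Gars, -0.09 to 0.21 for Hars, -0.07 to 0.16 for Kars and -0.01 to 0.12 for Yars. The smallest log2 change called in a member was 0.29 with TDP-43 siRNA and 0.28 with ATP, against 0.25 and 0.24 over all genes tested. Nars2, a low-count member, had no call with ATP at 0.42 (SE 0.20), and it passed in 2 of the 17 alternatives. At this SE a missing call does not show that there was no change.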
